A study of Mus musculus with 14 samples.

Results

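The genes described here are the ubiquitin-specific proteases (USPs) of the mouse anterior cortex, 45 of 19360 gene symbols, chosen by their symbol and a minimum level. USPs are cysteine proteases that cut ubiquitin from proteins and ubiquitin chains, and they form the most numerous family of deubiquitinases in mammals. They act beside Vcp (p97), a ring-shaped ATPase that pulls ubiquitin-marked proteins out of membranes, complexes and aggregates and hands many of them to the proteasome. Some USPs trim chains at the proteasome, the endoplasmic reticulum, mitochondria or endosomes, and others remove ubiquitin from histones and DNA repair proteins.

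Anterior cortex RNA was sequenced from 14 C57BL/6J mice aged 15 months, with 1 library per mouse. There were 4 mice homozygous for the DG allele of Vcp (DG/DG), 6 heterozygous mice (DG/+) and 4 wild-type mice (WT). The labels are silent on sex, litter, batch and breeding, and do not say how the DG allele was made. In the reads, Y-linked transcripts marked 1 of 4 DG/DG libraries, 2 of 6 DG/+ libraries and 2 of 4 WT libraries, and Xist marked the other 9 libraries. The comparison of the genotypes asks how a Vcp mutation that the series title calls hypomorphic, one that lowers function, bears on the cortical transcriptome.

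Of the 19360 gene symbols in the deposited table, 51 begin with Usp and a number. The rule set aside 3 of these and no pseudogene. Another 3 were under a mean of 1 CPM (counts per mega-count): Usp26 with 2 reads over the 14 libraries, Usp44 with 3 reads and Usp50 with 32 reads. CPM gives a gene's reads as parts of the library's reads over the transcripts kept, 1 per symbol. This filter and the summed markers below use CPM without further scaling. Levels of single genes given below are taken over the reads of the genes tested and scaled between libraries by edgeR's TMM method. The other 45 genes are the members, and all 45 were among the 14565 genes tested. Usp6nl is one of them by its symbol alone, since it encodes a GTPase-activating protein named for its likeness to the N-terminal part of USP6, so 44 members are USPs. The members lie on 16 chromosomes, with Usp11, Usp27x and Usp51 on X. Another RefSeq gene overlaps 24 of them, and whether reads were counted by strand is not given in the sources used here.

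The libraries held 8647980 to 15911393 reads over the transcripts kept (1 per symbol), with WT replicate 4 the shallowest. Summed neuronal markers (6 of 6 genes found) reached 5463 to 6353 CPM in DG/DG, 5606 to 6582 CPM in DG/+ and 5280 to 6092 CPM in WT. Summed markers of cortical layers (7 of 7 genes) reached 452.4 to 566.4 CPM in DG/DG, 517.7 to 611.9 CPM in DG/+ and 370.0 to 626.9 CPM in WT, and no marker of either list was at 0. Pituitary markers reached 4145 CPM in DG/DG replicate 1, against 0.654 to 104.6 CPM elsewhere. Choroid plexus markers reached 572.8, 608.3 and 223.7 CPM in DG/+ replicates 1, 5 and 6 and 1307 CPM in WT replicate 3, against 15.85 to 78.82 CPM in the other libraries. Striatal markers reached 1087 CPM in DG/DG replicate 3 and 1206 CPM in DG/+ replicate 4. In a cortical extract, fewer cells of a type and less RNA per cell cannot be told apart. Vcp averaged 110.7 ± 4.6 CPM in DG/DG (n = 4), 99.99 ± 4.58 CPM in DG/+ (n = 6) and 97.3 ± 8.3 CPM in WT (SD, n = 4). Its log2 fold change in DG/DG against WT was 0.18, with an adjusted p of 0.886 over all genes in edgeR's quasi-likelihood test and of 0.0429 when its log2 CPM was compared by exact permutation of mice (two-sided, adjusted for 3 comparisons). In DG/DG against DG/+ it was 0.15 (adjusted p 0.972 with edgeR, 0.0286 by permutation), and in DG/+ against WT 0.04 (0.9999 and 0.514). The DG/DG libraries, at 106.6 to 115.1 CPM, lay above those of WT (85.3 to 103.7 CPM) and DG/+ (92.16 to 104.0 CPM). Such a separation by itself gives the smallest p this exact permutation can reach. Before adjustment that is 0.0286 for 4 against 4 mice and 0.00952 for 4 against 6. Of all genes, 1.43% and 0.803% were likewise separate and higher in DG/DG. A transcript level does not check the genotype labels here, since nothing says that the allele alters it.

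RefSeq's promoter table (GRCm38.p6) matched 36 of the 45 members. Over the 150 bases before their start, these held a median of 14 CG pairs and 68.35% GC, against 11 CG pairs and 63.3% GC over the promoters of 10190 tested genes. The letters GGGCGG (the GC box, either strand) stood in 26 of the 36, or 72.2%, against 53.2% of the tested genes' promoters and 28.6% of all 32851 promoters. The letters CCAAT, either strand, stood in 5 of the 36 (13.9%), against 28.1% of the tested genes' promoters and 24.5% of all. The E-box CACGTG was in 4 (11.1%), against 6.02% and 4.3%, the cyclic AMP element TGACGTCA in 0, against 2.48% and 1.36%, and TATAAA in 1 (2.78%), against 3.3% and 7.57%. A match is a string of letters, not a site in use. 3 stretches are shown because the values below turn on these genes. They are the windows of Usp27x and Usp12, both among the 4 members with the smallest p in each comparison with DG/+, and the 96 bases between the starts of Usp29 and its neighbour Peg3, which ran high in the same libraries. They are in lower case with every match to those motifs in capitals.
Usp27x, chrX:7375831-7375980, minus strand: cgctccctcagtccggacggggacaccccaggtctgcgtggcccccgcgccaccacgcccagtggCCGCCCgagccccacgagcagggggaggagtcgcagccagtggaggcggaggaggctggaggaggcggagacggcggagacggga
Usp12, chr5:146794957-146795106, minus strand: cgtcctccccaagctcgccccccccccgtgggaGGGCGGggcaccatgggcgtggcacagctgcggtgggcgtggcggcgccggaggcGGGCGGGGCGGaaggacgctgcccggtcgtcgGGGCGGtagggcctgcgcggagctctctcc
Usp29 to Peg3, chr7:6730463-6730558, plus strand: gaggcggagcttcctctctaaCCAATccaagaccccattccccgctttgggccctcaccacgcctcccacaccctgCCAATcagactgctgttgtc
The Usp27x window has 16 CG pairs and 1 GC box and overlaps the RefSeq gene Gm14379, and the Usp12 window has 20 CG pairs and 4 GC boxes, of which 1 pair shares letters. The stretch between Usp29 and Peg3 has 3 CG pairs, no GC box and 2 CCAAT boxes. Among all promoters, 18.3% of windows of 96 bases held CCAAT at least 1 time and 3.28% at least 2 times.

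USP transcripts spanned a wide range of levels in all 3 genotypes. Per kilobase of transcript, the mean level ran over 124.4-fold, with a median of 13.8 CPM per kilobase over the members and 8.62 over all tested genes with a length. Usp5, which breaks down free ubiquitin chains, was the highest, at 78.4 ± 6.1 CPM per kilobase in DG/DG, 76.2 ± 3.6 in DG/+ and 76.7 ± 8.9 in WT. Usp22, the histone H2B protease of the SAGA coactivator, followed at 74.3 ± 5.0 CPM per kilobase in DG/DG, 70.8 ± 3.3 in DG/+ and 70.5 ± 7.9 in WT. Usp7, which acts on Mdm2 and p53, stood at 59.0 ± 2.9 CPM per kilobase in DG/DG, 59.98 ± 2.39 in DG/+ and 59.5 ± 4.4 in WT (SD, n = 4, 6 and 4 mice for each). The means of Usp5 and Usp22 differed by less than their SD in DG/DG and WT and by more in DG/+, and both lay above the mean of Usp7 in each genotype.

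The lowest members were Usp43, at 0.642 ± 0.228 CPM per kilobase in DG/DG, 0.641 ± 0.160 in DG/+ and 0.563 ± 0.175 in WT, and the X-linked Usp51, a histone H2A protease, at 0.953 ± 0.243 in DG/DG, 0.676 ± 0.178 in DG/+ and 0.871 ± 0.529 in WT. Both rested on between 7 and 49 reads per library, and their libraries overlapped in each genotype. Usp49, a histone H2B protease, came next at 2.38 ± 0.25 CPM per kilobase in DG/DG, 2.48 ± 0.30 in DG/+ and 2.59 ± 0.49 in WT.

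**Figure D1:**
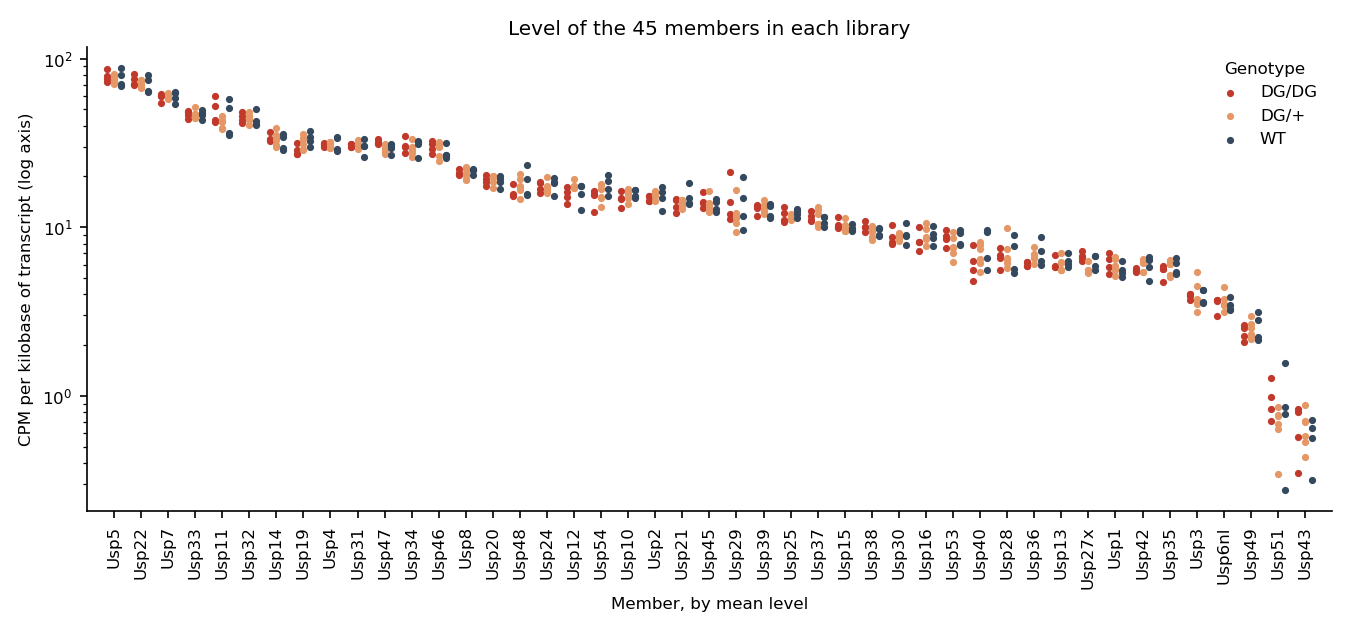
Level of each member in each library, in CPM per kilobase of transcript on a log axis, with members ordered by mean level and 1 point per library (DG/DG, DG/+ and WT from left to right within a member). The points of the 3 genotypes overlap within nearly every member, and Usp51 and Usp43 lie below all others.

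No member passed the threshold in DG/DG against WT, the comparison of mice with 2 mutant Vcp alleles and mice with none. 0 of 45 had an adjusted p under 0.05 (edgeR's quasi-likelihood test, Benjamini-Hochberg over 14565 genes, smallest 0.886), against 0.0% of all genes. At an unadjusted p under 0.05, 0 members were higher in DG/DG, against 2.14% of all genes, and 2 were lower, Usp19 and Usp54 (4.44% of the members), against 2.98% of all genes. In both directions together, DESeq2 gave 2 members at that unadjusted threshold (4.44%, against 5.0% of all genes). Run with quality weights for the libraries here and below, limma-voom gave 6 (13.3%, against 8.36%), with 0 after adjustment in both. Leaving out 1 library at a time, edgeR gave 0 members without DG/DG replicate 1, WT replicate 2 or WT replicate 4 and 4 without WT replicate 1 or 3, while the share of all genes ran between 2.35% and 9.98%. With a term for the sex seen in the reads, added after seeing the data, 1 member had an unadjusted p under 0.05 (2.22%, against 6.03% of all genes), and the log2 fold changes were -0.20 for Usp19 and -0.24 for Usp54. The median log2 fold change was 0.0003 over the members and 0.0003 over all genes, with 23 members above 0 and 22 below, and the single values ran between -0.33 for Usp40 and 0.20 for Usp43, both named for lying at the ends. Fold changes lay within 0.1 log2 of 0 in 29 members (64.4%), against 49.2% of all genes. The members were more abundant, with a median of 59.1 CPM against 23.6 CPM over all genes tested. The part of abundance in this share and in those of the other comparisons was not tested. The 95% interval of 41 members lay within a 1.5-fold difference in either direction, so differences beyond that size fall outside the intervals of most members.

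Usp19, whose membrane-bound form sits in the endoplasmic reticulum and acts in the disposal of misfolded proteins there, had the smallest p. It had 123.0, 123.4, 143.5 and 130.3 CPM in the 4 DG/DG libraries, 128.7 to 161.3 CPM in DG/+ (median 145.6) and 147.2, 154.0, 135.3 and 167.4 CPM in WT. DG/DG replicate 3 lay above the lowest WT library, so the groups overlapped, and the means were 130.1 ± 9.6 in DG/DG and 151.0 ± 13.4 CPM in WT. The log2 fold change was -0.21 (95% interval -0.40 to -0.03, unadjusted p = 0.0253, adjusted p = 0.886). Usp54, a close relative of Usp53, had 80.35, 100.6, 102.0 and 106.6 CPM in DG/DG, 85.58 to 116.7 CPM in DG/+ (median 103.8) and 100.1, 122.0, 108.8 and 133.4 CPM in WT. Its highest DG/DG library lay above its lowest WT library, and the log2 fold change was -0.25 (95% interval -0.50 to -0.01, adjusted p = 0.886).

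Usp36, a nucleolar protease that serves ribosome production, had 34.97, 33.03, 32.87 and 34.87 CPM in DG/DG, 33.88 to 42.87 CPM in DG/+ (median 37.65) and 33.58, 40.46, 35.48 and 49.01 CPM in WT. The 4 DG/DG libraries were close together and 2 of them lay above WT replicate 1. The log2 fold change was -0.22 (95% interval -0.44 to 0.00, adjusted p = 0.886). WT replicate 4, the shallowest library, held the highest value of all 14 for Usp19, Usp54 and Usp36, and without it the log2 fold changes were -0.16 for Usp19, -0.18 for Usp54 and -0.11 for Usp36. That library was the highest of the 14 in 11 of 45 members (24.4%), against 13.8% of all genes tested. DG/DG replicate 1, the library with 4145 CPM of pituitary markers, held the lowest value of all 14 for Usp19 and Usp54. Without it the log2 fold changes were -0.19 for Usp19, -0.17 for Usp54 and -0.23 for Usp36.

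Usp47, a relative of Usp7 that acts in base excision repair, was the single member whose DG/DG and WT libraries did not overlap. It had 182.9, 194.4, 181.6 and 185.8 CPM in DG/DG and 176.7, 180.8, 171.4 and 155.5 CPM in WT, with 157.9 to 182.3 CPM in DG/+ (median 168.7). The lowest DG/DG library lay just above the highest WT library, and the log2 fold change was 0.12 (95% interval -0.02 to 0.26, adjusted p = 0.886). WT replicate 4 held its lowest value of all 14, and without that library the log2 fold change was 0.08. Non-overlapping higher values in DG/DG were found in 1 member, or 2.22%, against 1.43% of all genes, and non-overlapping lower values in 0 members, against 1.19%. A further fit left out DG/DG replicate 1, DG/+ replicate 2 and WT replicates 2 and 3, a set without a stated criterion. This fit kept only replicates 1 and 4 in WT and replicates 2, 3 and 4 in DG/DG. In it, the log2 fold changes in DG/DG against WT were -0.24 for Usp19, -0.17 for Usp54, -0.29 for Usp36 and 0.18 for Usp47. Again, 0 members passed the adjusted threshold. The 4 libraries left out were each the highest of the 14 in 4.13% to 10.9% of all genes tested and the lowest in 3.38% to 11.6%. WT replicate 4, the highest in 13.8% and the lowest in 12.5%, stayed in this fit.

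In DG/+ against WT, the comparison of 1 mutant allele with none, 0 members passed the adjusted threshold (smallest adjusted p 0.9999), with 0.0% of all genes. At an unadjusted p under 0.05, 0 members were higher in DG/+, against 0.755% of all genes, and 0 were lower, against 0.844%. No member's libraries were separate in either direction, against 0.144% of genes higher and 0.172% lower in DG/+. In both directions together, DESeq2 gave 0 members at the unadjusted threshold, against 1.45% of all genes, and limma-voom 1 (2.22%, against 2.38%), with 0 after adjustment in both. The median log2 fold change was -0.01 over the members and -0.01 over all genes, and 35 members lay within 0.1 of 0 (77.8%, against 61.95% of all genes).

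The 4 members with the smallest p were Usp27x, Usp12, Usp53 and Usp21. Usp27x, an X-linked relative of Usp22 that shares its SAGA partners, averaged 18.2 ± 1.2 CPM in DG/+ and 20.3 ± 2.1 CPM in WT, a log2 fold change of -0.16 (95% interval -0.33 to 0.02). Usp12, which with Usp46 is switched on by the partner Wdr48, averaged 76.5 ± 3.7 CPM in DG/+ and 68.7 ± 9.8 CPM in WT (log2 fold change 0.16, 95% interval -0.03 to 0.35). Its WT values were 55.07, 75.62, 67.81 and 76.17 CPM, so WT replicate 1 stood lowest, and without that library the log2 fold change was 0.07. Usp53 averaged 47.8 ± 6.8 CPM in DG/+ and 53.7 ± 5.8 CPM in WT, a log2 fold change of -0.17, and without DG/+ replicate 1 the log2 fold change was -0.11. Usp21, a histone H2A protease, averaged 30.7 ± 1.5 CPM in DG/+ and 33.8 ± 4.6 CPM in WT (log2 fold change -0.14), and WT replicate 4 stood at 40.46 CPM against 30.56 to 33.1 CPM in the other WT libraries. Without it the log2 fold change of Usp21 was -0.04. In the fit without the set of 4 libraries named above, which kept only replicates 1 and 4 in WT, Usp53 and Usp21 both stood at -0.27. All 4 had an adjusted p of 0.9999 (edgeR).

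In DG/DG against DG/+, which share no library but are each also set against the same WT mice above, 0 members passed the adjusted threshold (smallest adjusted p 0.972), with 0.0% of all genes. At an unadjusted p under 0.05, 2 members were higher in DG/DG, Usp27x and Usp47, 4.44% of the members against 1.68% of all genes, and 0 were lower, against 1.62%. In both directions together, DESeq2 gave 2 members at the unadjusted threshold (4.44%, against 3.25% of all genes) and limma-voom 4 (8.89%, against 7.06%), with 0 after adjustment in both. The median was -0.0006 over the members and 0.0023 over all genes, and 32 members lay within 0.1 of 0 (71.1%, against 55.3% of all genes).

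Usp27x had 20.43, 21.44, 21.94 and 23.53 CPM in DG/DG and 17.33 to 20.53 CPM in DG/+ (median 17.88), beside 22.04, 17.97, 21.99 and 19.07 CPM in WT. DG/+ replicate 3, at 20.53 CPM, was the only DG/+ library above the lowest DG/DG library. The log2 fold change in DG/DG against DG/+ was 0.26 (95% interval 0.09 to 0.44, unadjusted p = 0.00583, adjusted p = 0.972 with edgeR). The WT libraries spanned both groups, so the order of the genotypes did not follow the number of DG alleles. The libraries highest in Usp27x are described below with Usp11. Usp47 had a log2 fold change of 0.14 in the same comparison (95% interval 0.01 to 0.26, adjusted p = 0.972), and its DG/+ replicate 3 lay above 1 DG/DG library. Usp12 averaged 67.5 ± 6.7 CPM in DG/DG and 76.5 ± 3.7 CPM in DG/+, a log2 fold change of -0.18 (95% interval -0.37 to 0.01). Usp19 had a log2 fold change of -0.15, which was -0.09 with an offset for length and GC content. No member's libraries were separate, against 0.803% of genes higher and 0.405% lower in DG/DG.

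In a fit of the allele count as a straight trend, 0 members and 0.0% of all genes passed the adjusted threshold (smallest adjusted p among members 0.845, edgeR). At an unadjusted p under 0.05, 3 members ran lower with each allele, or 6.67% against 3.23% of all genes, and 0 ran higher, against 2.42%. The 3 were Usp19 at -0.11 log2 per allele, Usp54 at -0.13 and Usp36 at -0.11, the same members that led DG/DG against WT, which rests on the same libraries.

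**Figure D2:**
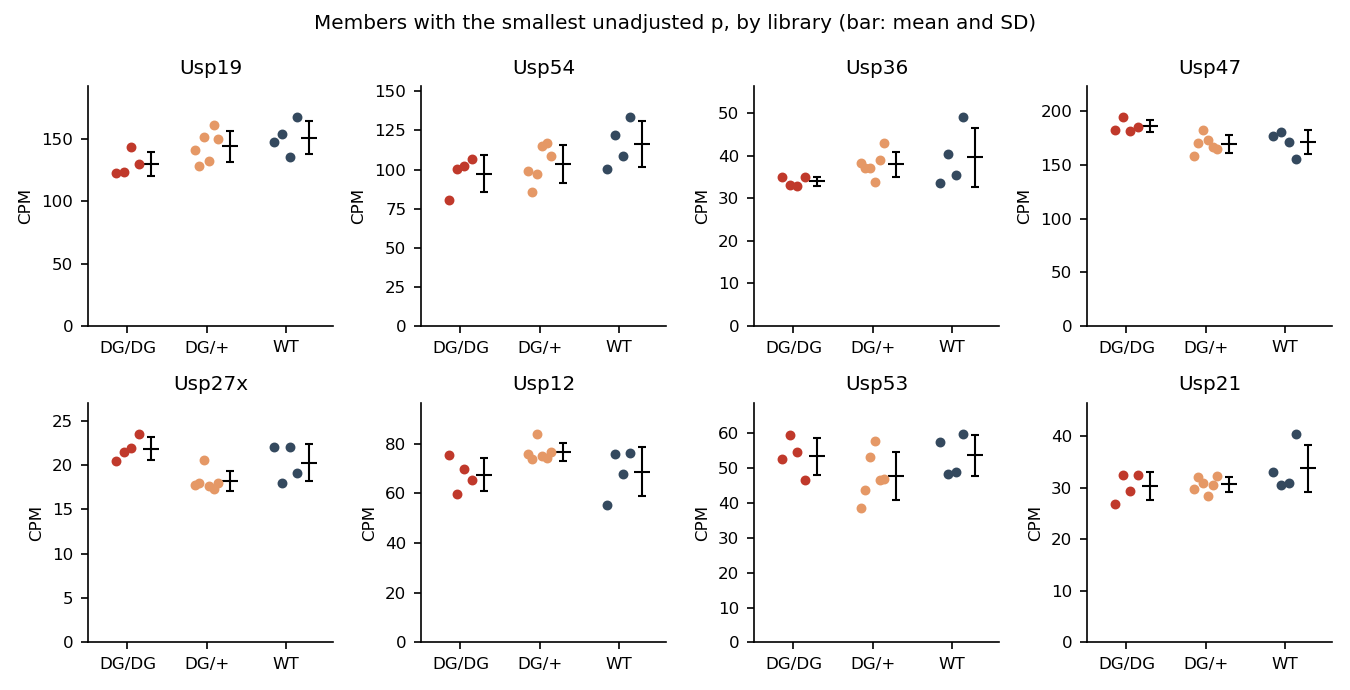
Level in CPM of the 8 members with the smallest unadjusted p in the 3 comparisons, with 1 point per library, DG/DG, DG/+ and WT from left to right, and the mean with its SD beside the points. Usp47 is the panel where the lowest DG/DG library (181.6 CPM) lies above the highest WT library (180.8 CPM), and in the other panels the 2 groups overlap.

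**Figure D3:**
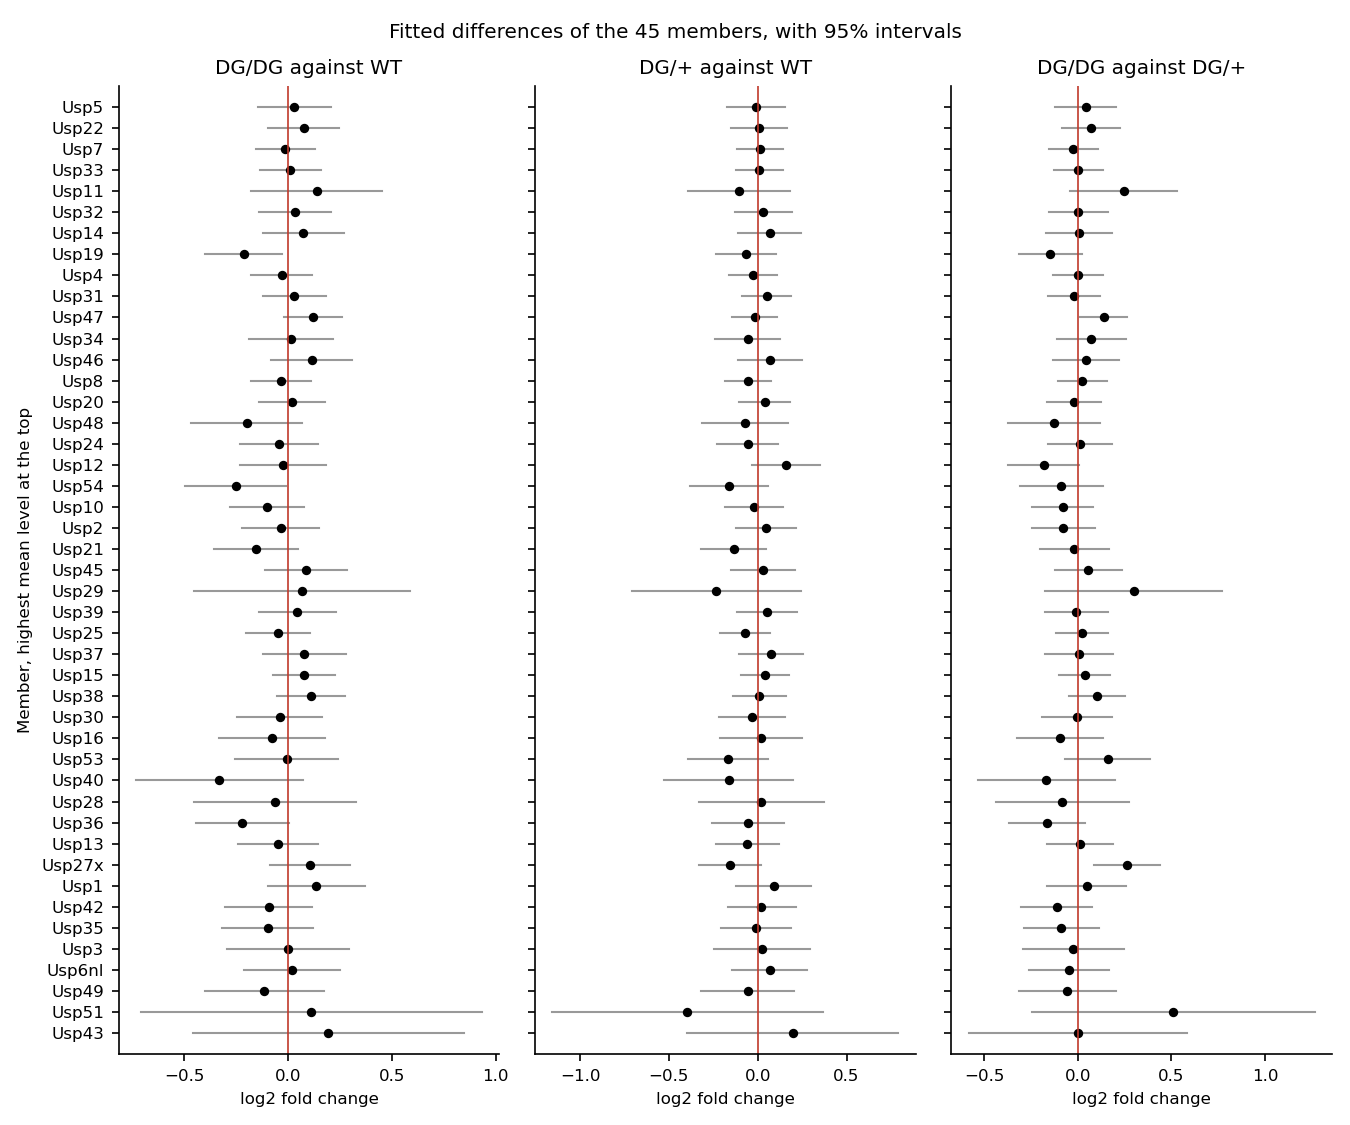
Fitted log2 fold change of the 45 members with its 95% interval in DG/DG against WT, DG/+ against WT and DG/DG against DG/+, with members ordered by level per kilobase and the most abundant at the top. Most points lie close to 0 in all 3 panels, and the long intervals belong to Usp51, Usp43, Usp29, Usp40 and Usp28. The points furthest from 0 are Usp40 at -0.33 in DG/DG against WT and Usp51 at -0.40 and 0.51 in the other panels.

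By where the members act, 0 passed the adjusted threshold in any group and comparison, and no test compared the groups. At the proteasome and on free chains, Usp14, a protease that docks on the proteasome, averaged 159.7 ± 9.2 CPM in DG/DG, 159.2 ± 15.2 CPM in DG/+ and 151.8 ± 16.7 CPM in WT, and Usp5 had a log2 fold change of 0.03 in DG/DG against WT and -0.01 in DG/+ against WT. In the disposal of endoplasmic reticulum proteins, a route in which Vcp is the motor, Usp25 averaged 56.2 ± 5.2 CPM in DG/DG, 55.3 ± 1.6 CPM in DG/+ and 58.1 ± 3.2 CPM in WT. Usp13, the low relative of Usp5 that works on the same route, averaged 46.2 ± 3.7 CPM in DG/DG, 45.8 ± 4.5 CPM in DG/+ and 47.7 ± 3.8 CPM in WT. Of the 3 members of that group, 0 passed the adjusted threshold and 1, Usp19, had an unadjusted p under 0.05 in DG/DG against WT, where 5.12% of all genes did in either direction.

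Usp30, which sits in the outer mitochondrial membrane and opposes Parkin, averaged 40.5 ± 4.8 CPM in DG/DG, 40.7 ± 1.7 CPM in DG/+ and 41.7 ± 5.2 CPM in WT. Usp8, the endosomal protease that works with the ESCRT sorting machinery, averaged 87.6 ± 3.5 CPM in DG/DG, 86.3 ± 6.1 CPM in DG/+ and 89.6 ± 3.1 CPM in WT. Among the 7 members of endosomes and receptor sorting, log2 fold changes in DG/DG against WT ran between -0.10 and 0.11, and 0 passed either threshold. Among the 15 members of chromatin and DNA repair they ran between -0.20 and 0.14, with 0 at an unadjusted p under 0.05. In the other comparisons that group held wider values, between -0.40 and 0.09 in DG/+ against WT and between -0.13 and 0.51 in DG/DG against DG/+, with the scarce Usp51 at -0.40 and at 0.51. Its 2 members at an unadjusted p under 0.05 in DG/DG against DG/+ were Usp27x and Usp47, named above, and 3.3% of all genes passed there in either direction. The 3 members tied to splicing, Usp4, Usp15 and the protease-dead splicing factor Usp39, ran between -0.03 and 0.08 in DG/DG against WT.

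Summed over the 45 members, the level was 4606 ± 78.9 CPM in DG/DG, 4544 ± 129.7 CPM in DG/+ and 4587 ± 94.4 CPM in WT, and the ranges of the 3 genotypes overlapped.

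Among 8 sets of close relatives, the shares of the level per kilobase overlapped between genotypes, apart from those of Usp22 and Usp27x in DG/DG and DG/+. Usp5 made up 92.8 ± 0.8% of the level of Usp5 and Usp13 in DG/DG, 92.6 ± 0.9% in DG/+ and 92.3 ± 1.2% in WT. Usp33 made up 71.2 ± 2.1% of Usp20 and Usp33 in DG/DG, 70.9 ± 2.1% in DG/+ and 71.3 ± 2.7% in WT, both being proteases of receptor recycling. In the SAGA trio, Usp27x made up 8.22 ± 0.25% in DG/DG, 7.29 ± 0.32% in DG/+ and 8.07 ± 0.31% in WT (SD, n = 4, 6 and 4), and its ranges were 8.06 to 8.59% in DG/DG, 6.81 to 7.78% in DG/+ and 7.73 to 8.40% in WT. Usp22, which makes up most of the rest, had a share of 90.33 to 91.02% in DG/DG, 91.44 to 92.76% in DG/+ and 90.48 to 91.71% in WT. DG/DG lay apart from DG/+ in both shares, which are parts of 1 total, while DG/+ and WT overlapped. In CPM, the Usp27x libraries of DG/DG and DG/+ overlapped, as given above. The shares were picked out of the 8 sets, and how often such shares separate among other genes was not counted. Usp11 made up 54.3 ± 4.8% of Usp4, Usp11 and Usp15 in DG/DG, 50.5 ± 1.1% in DG/+ and 51.6 ± 8.0% in WT, with single libraries between 44.5% and 60.2%.

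The spread between mice of 1 genotype was wider than the median size of the fitted difference, which was 0.076 log2 in DG/DG against WT, and a few members varied widely. The SD of log2 CPM within genotypes had a median of 0.131 over the members and of 0.18 over the 14017 genes of at least 1 CPM, and 36 of 45 members lay under 0.18. The members were also more abundant, with a median of 59.1 CPM against 23.6 CPM over all genes tested, and more reads give a smaller counting error. The members with the widest spread were Usp51 at 0.582, Usp43 at 0.447 and Usp29 at 0.368. Counting alone gives an SD of about 0.339 for Usp51 and 0.260 for Usp43, but 0.043 for Usp29.

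Usp29 is an imprinted gene read from the paternal allele, beside Peg3, an imprinted zinc finger gene on the other strand (chr7:6703892-6730462 for Peg3 and chr7:6730559-6967220 for Usp29, GRCm38.p6), across the 96 bases printed above. It had 90.27, 84.71, 160.8 and 107.0 CPM in DG/DG, 70.87 to 124.8 CPM in DG/+ (median 86.47) and 149.7, 87.95, 111.9 and 73.05 CPM in WT. Peg3 had 580.3, 493.8, 816.0 and 536.9 CPM in DG/DG, 508.2 to 600.7 CPM in DG/+ and 804.4, 528.7, 591.5 and 581.5 CPM in WT. The libraries highest in Usp29, DG/DG replicate 3 and WT replicate 1, were also the highest in Peg3, and the next highest in Usp29, DG/+ replicate 4, was the next highest in Peg3. DG/DG and WT each held 1 such library, and the log2 fold change of Usp29 in DG/DG against WT was 0.07 (95% interval -0.45 to 0.59, adjusted p = 0.979, edgeR).

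Usp11, an X-linked DNA repair protease, was spread widely for its depth as well, with an SD of 0.233 log2 within genotypes where counting alone gives 0.034. It had 146.3, 150.3, 209.4 and 181.4 CPM in DG/DG, 133.0 to 159.2 CPM in DG/+ (median 147.0) and 177.4, 124.9, 198.5 and 122.8 CPM in WT. The 4 highest libraries were DG/DG replicates 3 and 4 and WT replicates 1 and 3. The same 4 were the ones with at least 20 CPM of Gpr101, an X-linked orphan receptor chosen for display after its values were seen, at 30.37 and 24.14 CPM in DG/DG and 24.57 and 40.54 CPM in WT. Usp27x was also highest in those 4 libraries, at 21.94 and 23.53 CPM in DG/DG and 22.04 and 21.99 CPM in WT. The 6 DG/+ libraries held 1.56 to 13.5 CPM of Gpr101. Whether the tissue that carries Gpr101 had a part in the level of Usp11 or Usp27x was not tested. Of these 4 libraries, DG/DG replicate 3 and WT replicate 1 held Y-linked transcripts and the other 2 held Xist. An alternative added after seeing the data left out these 4, which leaves 2 libraries in DG/DG (replicates 1 and 2) and 2 in WT (replicates 2 and 4). Of all 14 libraries, DG/DG replicate 1 was the lowest in Usp19 (123.0 CPM) and Usp54 (80.35 CPM). WT replicate 4 was the highest in Usp19, Usp54 and Usp36. In this fit the log2 fold changes in DG/DG against WT were -0.38 for Usp19, -0.49 for Usp54 and -0.39 for Usp36, and 0 members passed the adjusted threshold. The log2 fold change of Usp27x in DG/DG against DG/+ was then 0.20, against 0.26 with all libraries.

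**Figure D4:**
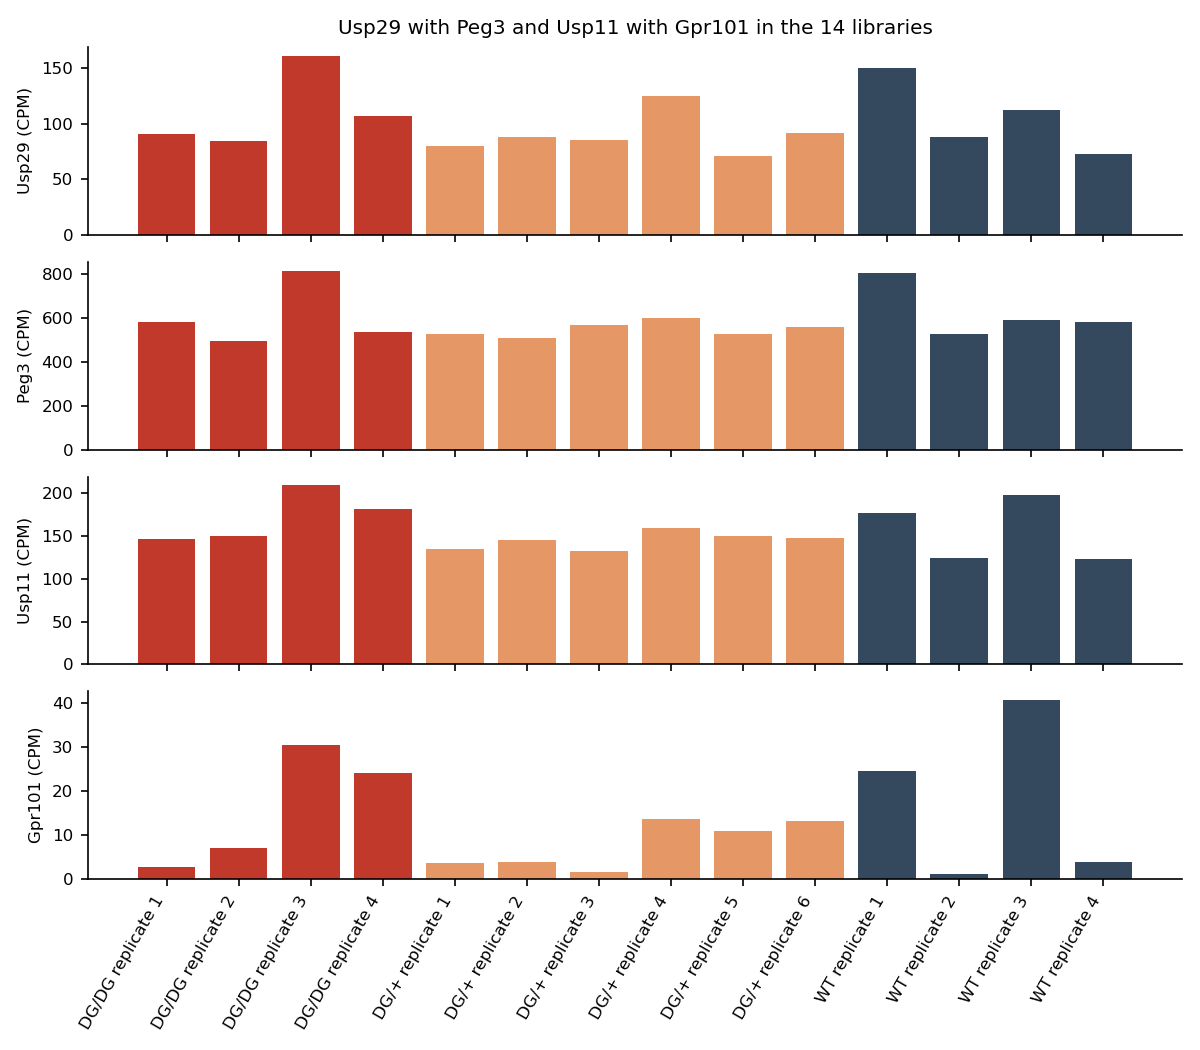
Level in CPM of Usp29, Peg3, Usp11 and Gpr101 in the 14 libraries, with DG/DG, DG/+ and WT from left to right. DG/DG replicate 3 and WT replicate 1 are the highest in Usp29 and in Peg3, and the 4 libraries over 20 CPM of Gpr101 are the 4 highest in Usp11.

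The fitted differences of the members ran with the base composition of their transcripts. Spearman's rho of the log2 fold change and GC content over the 45 members was -0.36 in DG/DG against WT, -0.17 in DG/+ against WT and -0.41 in DG/DG against DG/+. Over 14314 tested genes with a GC value it was -0.29 in DG/DG against WT, -0.11 in DG/+ against WT and -0.24 in DG/DG against DG/+, so genes outside the family showed the same sign. These are descriptions over genes that share libraries. Usp19 (56.1% GC) and Usp36 (55.9%) lie at the GC-rich end of the members and Usp47 (44.0%) toward the other. With an offset for length and GC content in the fit, the log2 fold changes in DG/DG against WT were -0.15 for Usp19, -0.21 for Usp54, -0.14 for Usp36 and 0.11 for Usp47, and 0 members had an unadjusted p under 0.05, against 4.24% of all genes.

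**Figure D5:**
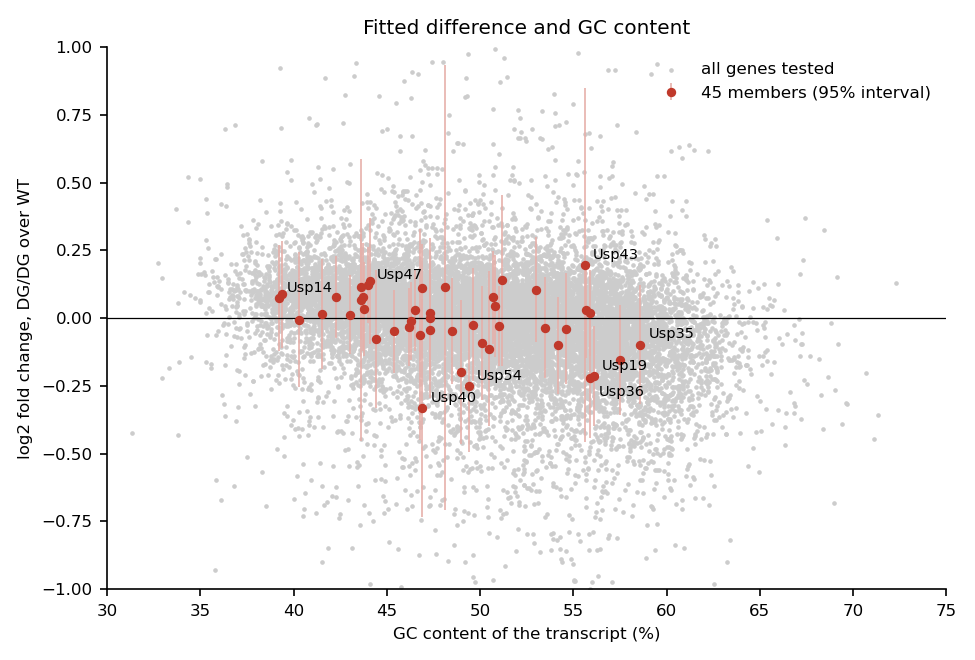
Fitted log2 fold change in DG/DG against WT over the GC content of the transcript in percent, for all 14314 tested genes with a GC value (grey, 63 of them beyond the vertical axis and 2 beyond the horizontal) and the 45 members (red, with 95% intervals). Usp19 and Usp36 lie at 56.1% and 55.9% GC and below 0, and Usp47 lies at 44.0% GC and above 0.

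Other deubiquitinases and partners of USPs gave a similar picture. Of 49 symbols listed, some of them older and newer names of the same gene, 42 were tested. Among these, 0 passed the adjusted threshold in any of the 3 comparisons (edgeR). At an unadjusted p under 0.05, 1 was lower and 0 higher in DG/DG against WT, 0 in DG/+ against WT, and 1 lower and 0 higher in DG/DG against DG/+, beside the 2.98% and 1.62% of all genes lower in DG/DG against WT and against DG/+. Both times it was Otud7b, a deubiquitinase of the OTU family that acts on NF-kappaB signalling, with 72.6 ± 10.4 CPM in DG/DG, 85.5 ± 5.8 CPM in DG/+ and 88.3 ± 11.6 CPM in WT. Its log2 fold change was -0.28 in DG/DG against WT and -0.24 in DG/DG against DG/+. The median over the 42 genes was 0.04, 0.02 and -0.04 log2 in DG/DG against WT, DG/+ against WT and DG/DG against DG/+.

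In the authors' deposited table, 0 of the 45 members had a false discovery rate under 0.05 and 0 an unadjusted p under 0.05 in either comparison with WT. The smallest p there was that of Usp54 in DG/DG against WT in the authors' deposited table (p = 0.101, log2 fold change -0.23). In DG/+ against WT it was that of Usp12 in the authors' deposited table (p = 0.110, log2 fold change 0.17).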

How the data were processed

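RNA of the anterior cortex was sequenced from 14 mice. The authors deposited a table of 24939 RefSeq transcripts with raw read counts per library, and with their own log2 fold changes, p-values and false discovery rates against WT, per the file headers. The submitters' processing notes name mm10 and edgeR. Which aligner and read counter were used is not given in the sources used here. Libraries are named by the replicate number of their titles, which in WT differs from the mouse number of the columns.

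From the counts, the transcript with the most reads was kept per symbol. Genes passing edgeR's default filter (14565) were tested with edgeR 4.0.16 in R 4.3.3 (TMM, robust quasi-likelihood fit to all 14 libraries, 3 contrasts and a trend per DG allele, Benjamini-Hochberg adjustment over all genes, threshold 0.05). Levels are CPM with TMM scaling, except in the 1 CPM filter of the members and the summed markers. Levels between genes are per kilobase of GENCODE transcript length. Groups do not overlap where every library of one lies above every library of the other. DESeq2 1.42.0, limma 3.58.1 (voom with quality weights), other scalings and filters, an offset for length and GC content, a block, a sex term, and leaving out libraries were the alternatives. The fit was tested on simulated data. P-values set a difference between genotypes against the spread between these mice.

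Members named are the 4 with the smallest unadjusted p per comparison, those fixed for their role or relatives, the 3 highest and lowest per kilobase, and the 3 with the widest spread. Members and lists were chosen with earlier results of these data known. Sequences, coordinates and overlaps are from RefSeq, GRCm38.p6. The symbols set aside by the rule are not reported here.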

Additional observations from a re-analysis of the deposited data

Results flagged for a closer look

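In 6 of 138 groups of libraries, 3 genotypes in each of 45 members and Vcp, 1 library stood apart from the rest of its genotype by Dixon's criterion, which flags about 1 in 20 groups by chance. Usp12 had 83.91 CPM in DG/+ replicate 3, above 73.77 to 76.49 CPM in the other DG/+ libraries. Usp27x had 20.53 CPM in the same library, above 17.33 to 18.01 CPM in the others of DG/+. Usp13 had 51.78 CPM in DG/DG replicate 4, above 43.96 to 44.79 CPM in the other DG/DG libraries. Usp48, a nuclear protease, had 103.3 CPM in DG/DG replicate 2, above 87.82 to 89.96 CPM in the others of DG/DG. Usp6nl had 22.24 CPM in that same DG/DG library, below 27.33 to 27.89 CPM in the others. Usp8 had 85.09 CPM in WT replicate 1, below 90.78 to 91.51 CPM in the other WT libraries. Without DG/+ replicate 3, the log2 fold change of Usp27x in DG/DG against DG/+ was 0.30, against 0.26 with it.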

How the results depend on the processing

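The count of members past the adjusted threshold stayed at 0 in all 3 comparisons under the 28 alternatives and at a threshold of 0.1. No leading member changed sign under any of them. The median log2 fold change of the members in DG/+ against WT was -0.06 (-0.0628) without the 4 libraries rich in Gpr101, a choice made after seeing the data, against -0.01 with them, and the cause was not tested. Without those 4 libraries, Usp19, Usp54 and Usp36 stood at -0.38, -0.49 and -0.39 in DG/DG against WT, with adjusted p of 0.25 to 0.26 (edgeR). 2 libraries were left in each of these genotypes, DG/DG replicates 1 and 2 and WT replicates 2 and 4. In this comparison, 6 members had an unadjusted p under 0.05 (13.3%, against 12.8% of all genes). In DG/+ against WT it was also 6 members, against 7.82% of all genes. Usp12 and Usp27x then stood at 0.01 and -0.02 in DG/+ against WT. Leaving out 1 library at a time, the medians ran between -0.03 and 0.02. Members at an unadjusted p under 0.05 then numbered 0 to 4 in DG/DG against WT, 0 to 3 in DG/+ against WT (3 without WT replicate 2) and 1 to 4 in DG/DG against DG/+ (4 without DG/DG replicate 1 or DG/+ replicate 4), and the share of all genes ran over 2.35% to 9.98%, 0.978% to 3.1% and 1.99% to 6.22% in these 3 comparisons.

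Same-numbered libraries did not deviate together, with correlations between -0.215 and 0.292 of mixed sign. By the mouse numbers of the labels, which differ in WT, the correlations were between -0.368 and 0.465, also of mixed sign, so neither numbering was taken to pair the mice. With the replicate block in the fit, Usp19 stood at -0.22 and Usp27x at 0.24 in the comparisons they led, and 0 members passed. With the block by mouse number, added after seeing the data, they stood at -0.22 (-0.215) and 0.24. Under either block, Usp19 in DG/DG against DG/+ was -0.09, against -0.15 without. Within-genotype spread limits what could be seen, since the half-width of the 95% interval had a median of 0.197 log2 in DG/DG against WT.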
